A study of Mus musculus with 12 samples.

Results

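Gene expression was compared between mammary tumours of 2 mouse strains, YC and YD. The comparison takes the 2 pools titled YC and the 2 pools titled YD, 4 of the 12 tumour pools of the series. Each pool combined RNA of 5 flash-frozen tumours, 10 tumours a strain, from female mice that had borne tumours for 6 weeks. The other 8 pools came from the parental strain NDL2-5 (NDL25 in the sample names) and from the strains NYPD, YB and YE, with 2 pools each. All 6 strains, YC and YD included, carry an activated neu (ErbB2) transgene driven by the MMTV promoter, which is active mainly in mammary epithelium, so there is no group without the oncogene. Neither ages nor genetic background are given in the labels. Pooling hides the differences between single tumours, and the spread between the pools of a strain is the only replicate error.

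ErbB2 is a receptor tyrosine kinase that signals by phosphorylating tyrosines in its own tail, where adaptor proteins dock and connect the receptor to the Ras and MAP kinase pathway, to PI3 kinase and to other routes. In this allelic series the NYPD receptor lacks the main tail tyrosines, and YB, YC, YD and YE each have a single one restored. YD is known for docking Shc. The comparison of YC with YD therefore asks how the tumours' RNA differs when one or the other site is the restored one.

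Every pool was hybridised on 2 arrays, with the dyes exchanged, against a commercial reference RNA from mouse cell lines, and values below are log2 ratios of tumour over reference, averaged over the pair of arrays. The 8 YC and YD arrays had median tumour intensities between 464 and 757, with local background between 43 and 48. On each of them 97.6% to 98.8% of tumour-channel spots exceeded background clearly, and 137 to 296 reached saturation. Precision is limited by having 2 pools a strain. Both strains had the markers of luminal mammary epithelium: the mean log2 ratio of Cdh1 (E-cadherin) was 4.76 in YC and 4.90 in YD, that of Elf5, a regulator of the milk-secreting lineage, 4.73 and 4.76, and that of Epcam 2.91 and 2.70. The scanner software extracted the images of all 4 YD arrays and of 1 array of YC pool 2 on one day, and those of the other 3 YC arrays on another day. The day thus follows the strain for all but 1 array, and strain and day can hardly be told apart. A day term in the model is set by YC pool 1 against YC pool 2 alone, so it carries the difference between those pools and gives no correction for the day. The first-day values below set the one YC array of that day, from pool 2 with tumour RNA in Cy5, against the Cy5 arrays of both YD pools.

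Of 28351 genes tested, 2 passed an adjusted p of 0.05 in limma (0.00705%), and both were higher in YC: Slc25a17, which encodes a peroxisomal membrane carrier of cofactors, and BC006965, a gene without an ordinary name. The latter lies outside the rule for named genes and was chosen after its values were seen. At an unadjusted p under 0.05 there were 670 genes (2.36%), 268 higher in YC (0.945%) and 402 higher in YD (1.42%). Each of the other 14 pairs of strains gave 2149 to 5759 genes by that measure, and 0 to 1467 after adjustment. The YC and YD pair had the fewest unadjusted calls of the 15 pairs, also under all 24 processing alternatives that gave the other pairs a value. The 4 pools fitted alone with the pool number as a block gave 3581 unadjusted genes and 0 adjusted, a fit that was not made for the other pairs. The 2.36% of the main fit is below the share that a threshold of 0.05 gives when no gene differs. The error of the main fit includes a gap between pool numbers that YC and YD shared. With the pool number as a block over all 12 pools, 801 genes had an unadjusted p under 0.05 in limma. Why the share was low was not tested. Unadjusted counts from the main fit, those of the lists included, do not measure how far the strains differ. The log2 differences between YC and YD had an SD of 0.159 over genes, and their median was -0.004.

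Slc25a17 had log2 ratios of -1.65 and -1.56 in the YC pools and -2.72 and -2.57 in the YD pools. The strains did not overlap, and the difference was 1.04 ± 0.08 (SE, limma adjusted p = 0.0144). The YE pools, at -1.80 and -1.76, lay close to YC, and the other 6 pools ran from -2.98 to -2.62, as low as YD. A second probe of Slc25a17 differed by 0.84 ± 0.06 in the same direction. The remaining probe differed by -0.22 ± 0.16, so the probes of this gene disagree. Which transcript each probe reads was not tested. BC006965 stood at 1.05 and 1.0 in the YC pools and at 0.17 and 0.22 in the YD pools, a difference of 0.83 ± 0.06 (limma adjusted p = 0.0144). The 8 pools of the other strains ran from 0.11 to 0.28, so the high level was seen in the YC pools alone.

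Both calls depended on the pools. On the first-day YC and YD arrays, with the spread taken from the Cy5 arrays of the other strains too, which were read on several days, the differences were 1.06 for Slc25a17 and 0.83 for BC006965, close to those over all arrays. Neither passed in that fit, which has 1 YC array. Both calls were also lost when either YD pool, either YC pool or either NDL25 pool was left out, while the differences stayed between 0.80 and 1.11.

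Below that threshold, 36 genes had pools that did not overlap and a mean at least 2-fold higher in YC (0.127% of genes), and 33 had the same in YD (0.116%). The genes that lead this group are described next, and apart from Slc25a17 none of them passed the test. The set with larger YC values was led by several genes best known from other tissues. Lcn10, a lipocalin, was at 2.02 and 2.37 in YC and at 0.16 and 0.15 in YD, a difference of 2.04 ± 0.30 (limma adjusted p = 0.439). P2rx3, an ATP-gated ion channel of sensory neurons, was at 2.20 and 2.44 against 0.21 and 0.17. Krt34, a hair keratin, was at 1.38 and 1.95 against 0.18 and 0.24.

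Sycn, a protein of pancreatic secretory granules, was at 1.76 and 2.28 in YC against 0.13 and 0.14 in YD. Tmem108, a transmembrane protein studied in neurons, was at 1.06 and 1.43 against 0.18 and 0.20. These 5 genes had one profile over the series. They were near the reference in the YD pools and in the NDL25 pools, whose values ran from 0.07 to 0.31, and they were highest in YC and NYPD, with the NYPD pools between 0.83 and 2.62. YB and YE mostly lay between. Inmt, a methyltransferase of small amines, also followed NYPD: it was at -0.47 and 0.31 in YC and at 0.49 and -0.76 in NYPD, against -1.93 and -2.03 in YD.

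Sftpd, surfactant protein D, was at 3.17 and 4.0 in YC and at 0.80 and 1.11 in YD, a difference of 2.63 ± 0.55. Deptor, a protein that binds and restrains mTOR, was at 2.42 and 2.29 against 0.47 and -0.56. For both of these genes the YC pools exceeded all 8 pools of the other strains, the highest of which were at 2.77 and 1.38. Rab7b, a GTPase of late endosomes, was at -0.24 and 0.18 in YC against -1.50 and -1.36 in YD, and here too the other 8 pools were lower than YC, at -0.98 or below. Fkbp11, a folding enzyme of the endoplasmic reticulum, differed by 1.02 ± 0.19, and Cdr2 by 1.11 ± 0.18.

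**Figure D1:**
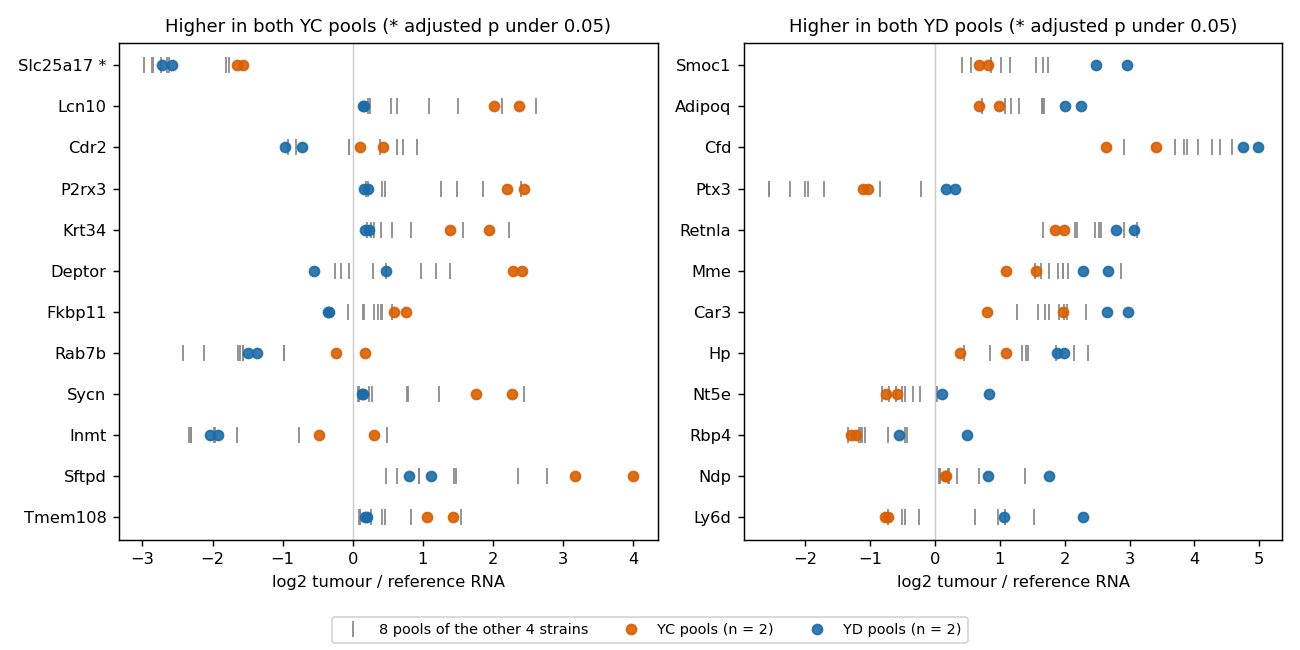
Log2 tumour over reference for the genes that lead each direction. Orange points are the 2 YC pools, blue points the 2 YD pools, and grey ticks the 8 pools of the other strains. Slc25a17, marked by an asterisk, is the single gene shown that passed the adjusted threshold. The YC and YD points do not overlap for any gene shown, as the choice of these genes requires.

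Among genes with larger YD values, Smoc1 had the smallest p. Smoc1 encodes a secreted calcium-binding matrix protein that modulates BMP signalling. Its log2 ratios were 2.48 and 2.97 in the YD pools and 0.68 and 0.82 in the YC pools, a difference of -1.97 ± 0.20 (limma adjusted p = 0.115). The YD pools were above all other pools of the series, which ran from 0.42 to 1.74. Set against the mean of NDL25, NYPD, YB and YE, Smoc1 was higher in YD by 1.60 (limma adjusted p = 0.0303), while YC differed from that mean by -0.37 (limma adjusted p = 0.476).

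Ptx3, a secreted pentraxin of innate immunity, was at 0.17 and 0.30 in YD and at -1.10 and -1.03 in YC. Against the other 4 strains it was higher in YD by 2.0 (limma adjusted p = 0.0303). The YB pools, at -0.22 and -0.85, were also above YC. Ly6d, a surface protein of keratinocytes and lymphocytes, was at 1.06 and 2.28 in YD and at -0.77 and -0.73 in YC, a difference of -2.42 ± 0.69. YB pool 1, at 1.53, and NYPD pool 2, at 1.08, lay above the lower YD pool. Ndp, the Wnt receptor ligand norrin, was at 0.81 and 1.75 in YD against 0.15 and 0.17 in YC, and YB overlapped YD at 1.38 and 0.67. Mme (neprilysin), Nt5e (the ecto-nucleotidase CD73) and Hp (haptoglobin) differed by -1.15, -1.14 and -1.19, each with an SE of 0.29 to 0.30. Mme in YE, at 1.98 and 2.87, overlapped YD at 2.28 and 2.66. Hp in YB, at 2.37 and 1.87, was as high as YD at 1.99 and 1.88. Nt5e was at 0.11 and 0.83 in YD and at 0.03 or below in the pools of the other strains. The other probes of Mme and Nt5e differed by less, -0.49 ± 0.13 and -0.36 ± 0.21.

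The remaining genes at the top of the YD direction include adipocyte genes. Adipoq, the adipocyte hormone adiponectin, was at 2.25 and 2.0 in YD and at 0.68 and 0.99 in YC, a difference of -1.29 ± 0.21 (limma adjusted p = 0.439). Cfd, the adipocyte protease adipsin, was at 4.98 and 4.75 against 2.64 and 3.41. Car3, a carbonic anhydrase abundant in fat and muscle, was at 2.97 and 2.64 against 0.80 and 1.97, although its other probe differed by -0.24. Rbp4, a retinol carrier, and Retnla, a secreted product of fat and of macrophages, differed by -1.23 ± 0.33 and -1.01 ± 0.24. Retnla in NDL25, at 2.91 and 3.11, was as high as in YD, at 2.78 and 3.07. Rbp4 was at 0.49 and -0.56 in YD. NYPD pool 1, at -0.44, and YB pool 1, at -0.47, lay above the lower of these.

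The adipocyte list leaned to YD. It includes Adipoq and Cfd, so its counts are not separate from the values above. Of 19 genes tested, none passed adjustment (0.00705% of all genes did), 17 had larger YD values (52.3% of all genes did), and 14 were higher in both YD pools than in both YC pools, which holds for 16.1% of all genes. The median difference was -0.52, against -0.004 over all genes. Retn (resistin) was at 0.92 and 0.72 in YD and at 0.06 and 0.05 in YC, and Cidec, a lipid droplet protein, at 1.54 and 1.18 against 0.30 and 0.46. Fabp4, the fatty acid binding protein of fat cells, differed by -0.90 ± 0.22 and the lipid droplet coat gene Plin4 by -0.80 ± 0.14.

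Other adipocyte genes did not share this. The differences of Lep, Lipe, Adrb3 and Acvr1c ran from -0.07 to 0.01, and Cd36, a fatty acid transporter also found in the milk fat globule, went the other way at 0.28 and 2.49 in YC against -1.09 and -1.47 in YD. The mean level over the list was 0.45 and 0.73 in the YC pools, 1.17 and 0.89 in the YD pools, and 0.46 to 1.03 in the other 8. The size of the lean depended on the pools: the median was -0.23 without YD pool 1, -0.86 without YD pool 2, and -0.74 on the first-day arrays, and it stayed below 0 in each of the 26 alternatives. In whole tumour RNA, fewer cells of a type and less RNA per cell cannot be told apart.

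Milk genes leaned toward YC. Of 14 genes for milk proteins and the fat globule, none passed adjustment, 7 had an unadjusted p under 0.05 with larger YC values (0.945% of all genes did), 13 had larger YC values (47.7% of all genes did) and 10 were higher in both YC pools, which holds for 13.1% of all genes. The median difference was 0.65. Wap, the whey acidic protein, was at 1.46 and 1.90 in YC and at 0.28 and 0.54 in YD, a difference of 1.27 ± 0.37, and its other probe gave 1.38. Glycam1, a mucin-like milk protein, was at 1.27 and 0.82 against 0.10 and 0.00.

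Btn1a1 (butyrophilin) and Xdh (xanthine dehydrogenase), which organise the fat globule membrane, differed by 0.92 ± 0.27 and 1.04 ± 0.32. Ltf (lactoferrin) differed by 0.72 ± 0.23, and by 0.37 ± 0.19 with its other probe. Csn1s2b, a casein gene, was at 1.16 and 2.97 in YC and at 0.08 and 0.07 in YD. The casein gene Csn1s1 was saturated on all 4 YC arrays, so its difference is only a bound. Mfge8 was saturated on 4 YC and 3 YD arrays, so its difference is bounded in neither direction. Muc15 and Lpo differed by -0.03 and 0.02. The NYPD pools were above YC for Wap and Glycam1, at 2.47 and 2.85 and at 2.33 and 3.33. The list median was 0.40 without YD pool 1 and 0.86 on the first-day arrays, and it stayed above 0 in each of the 26 alternatives.

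**Figure D2:**
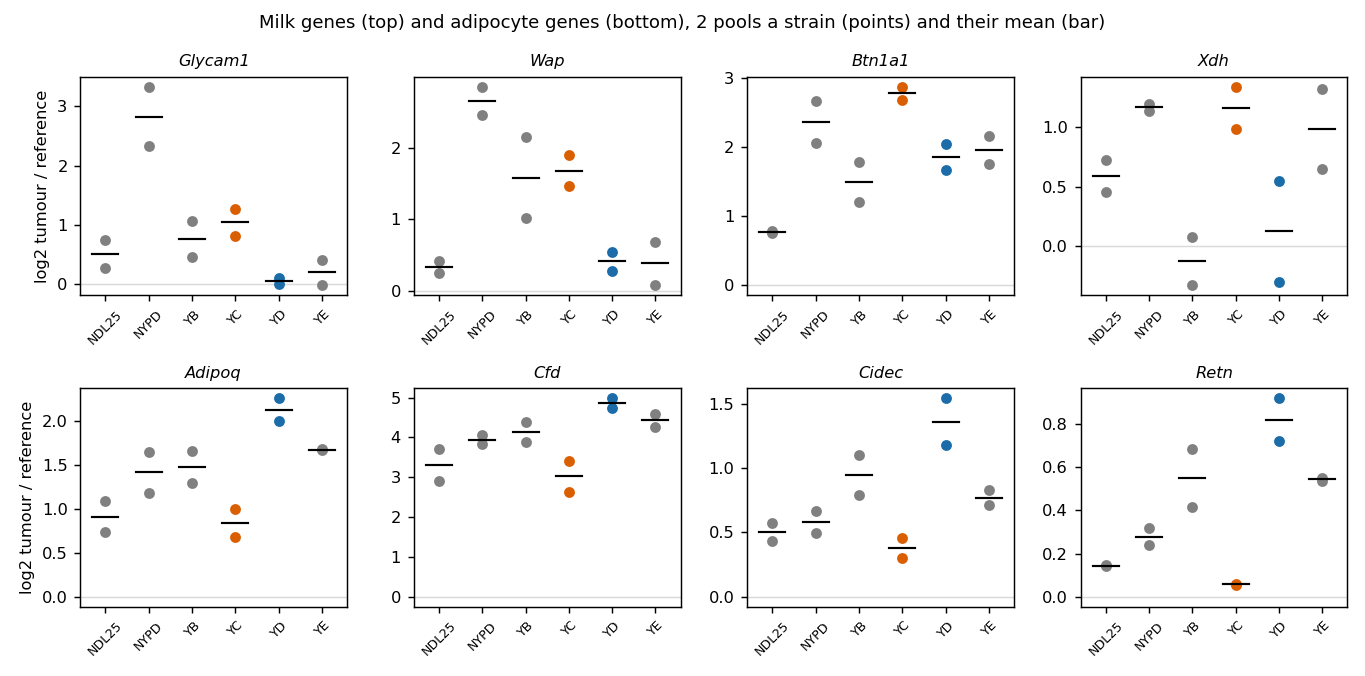
Log2 tumour over reference of 4 milk genes and 4 adipocyte genes in the 6 strains. Points are the 2 pools of a strain and bars their mean, with YC in orange and YD in blue. The YC points lie above the YD points for all 4 milk genes and below them for all 4 adipocyte genes. For Glycam1 and Wap the NYPD pools lie higher still. The genes shown were picked from their lists, and other members, among them Muc15, Lpo, Lep and Cd36, did not differ in this way.

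The 250 bases before the start sites of milk genes, adipocyte genes and the genes leading each direction were searched for TTCNNNGAA. STAT factors, among them the prolactin-activated STAT5 of milk genes, are known to bind this core. The Lcn10 group was chosen for larger YC values, so its leaning with the milk genes follows from that choice. The motif reads the same on both strands. It occurred in 7.02% of 32851 RefSeq promoter windows of that length, and in 2197 of the 27025 genes with a window. Of the 14 milk genes 10 had a window and 2 of these held it, Csn1s1 and Glycam1. Of the 12 genes that lead the YC direction 8 had a window and 2 held it, Lcn10 and Tmem108. These 8 genes had 10 windows, of which 2 held the motif. Of the 12 that lead the YD direction 8 had a window and 1 held it, Mme, and of 13 adipocyte genes with a window none did. The 4 windows from the YC direction follow, from RefSeq on GRCm38.p6, 5′ to 3′ along the gene's strand, with the motif in capitals. A match is only a string of letters, and binding was not measured.
Glycam1, chr15:103565082-103565331, minus strand: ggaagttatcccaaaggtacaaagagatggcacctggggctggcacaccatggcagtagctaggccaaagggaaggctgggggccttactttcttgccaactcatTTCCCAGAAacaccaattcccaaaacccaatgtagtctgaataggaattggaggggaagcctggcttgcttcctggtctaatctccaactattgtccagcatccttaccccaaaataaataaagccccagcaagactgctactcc
Csn1s1, chr5:87665958-87666207, plus strand: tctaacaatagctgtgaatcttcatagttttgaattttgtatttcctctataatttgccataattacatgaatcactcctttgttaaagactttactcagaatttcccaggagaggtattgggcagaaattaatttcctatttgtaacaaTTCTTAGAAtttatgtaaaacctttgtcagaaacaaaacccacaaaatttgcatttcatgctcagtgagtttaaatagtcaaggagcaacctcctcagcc
Lcn10, chr2:25682476-25682725, plus strand: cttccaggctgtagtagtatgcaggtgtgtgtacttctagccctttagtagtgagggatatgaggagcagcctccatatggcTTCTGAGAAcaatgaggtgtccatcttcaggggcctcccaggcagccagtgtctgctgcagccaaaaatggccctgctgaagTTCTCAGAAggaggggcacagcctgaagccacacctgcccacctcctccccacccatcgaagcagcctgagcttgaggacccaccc
Tmem108, chr9:103692808-103693057, minus strand: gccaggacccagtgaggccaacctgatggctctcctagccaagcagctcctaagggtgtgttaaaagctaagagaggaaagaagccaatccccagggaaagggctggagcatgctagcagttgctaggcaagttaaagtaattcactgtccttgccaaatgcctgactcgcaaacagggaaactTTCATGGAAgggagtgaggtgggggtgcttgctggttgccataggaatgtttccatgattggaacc

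The YC and YD pools overlapped for the receptor, and its adaptors went both ways. Erbb2 was at 3.72 and 3.91 in YC and at 3.55 and 3.97 in YD, a difference of 0.05 ± 0.85. The pools of NDL25, at 1.64 and 3.92, and of YB, at 1.85 and 4.19, enter that error. The 2 other Erbb2 probes differed by -0.15 ± 0.19 and 0.01 ± 0.10. Their levels in YC and YD were only 0.47 to 0.91 and 0.18 to 0.23, so the high level rests on the first probe. Whether any of these mouse probes reads the transgene was not tested. Of 26 adaptor genes none passed adjustment, 17 had larger YD values (52.3% of all genes), and the median difference was -0.03. Of these 26, 2 were higher in both YC pools (13.1% of all genes) and 4 in both YD pools (16.1% of all genes). Shc1, the adaptor that docks at the YD site, differed by -0.03 ± 0.18, Grb2 by -0.08 ± 0.23, Crk by 0.09 ± 0.41, Crkl by 0.09 ± 0.24 and Dok2 by -0.03 ± 0.17. With these errors, modest differences in either direction were not detectable. Grb10 was at 0.50 ± 0.17, with other probes at 0.03 ± 0.07 and 0.47 ± 0.70, and Grb7 at -0.39 ± 0.15.

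Among 14 ErbB receptors and ligands the differences were evenly split, 7 each way. Egf was at 1.75 and 2.66 in YC and at 1.51 and 1.25 in YD, a difference of 0.82 ± 0.29. Areg (amphiregulin) was at -1.60 and -1.23 against -0.22 and -0.83, a difference of -0.89 ± 0.49. Of 25 outputs of ERK signalling and immediate early genes, none passed adjustment, 19 had larger YD values (52.3% of all genes) and 9 were higher in both YD pools (16.1% of all genes), with a median of -0.13. Egr2 and Egr3, transcription factors induced by ERK, differed by -0.73 ± 0.26 and -0.97 ± 0.37, and Egr3's other probe by 0.04. Dusp6, a phosphatase that limits ERK, was at 1.48 and 2.0 in YC and at 2.03 and 2.37 in YD, while Myc leaned to YC by 0.39 ± 0.19. Without YD pool 2 the median of this list was -0.00.

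Stromal genes also leaned to YD. Of 26 fibroblast and matrix genes none passed adjustment, 25 had larger YD values and 15 were higher in both YD pools (16.1% of all genes), with a median of -0.30. Dcn (decorin) was at -0.29 and -1.18 in YD and at -2.04 and -1.41 in YC, but its other probe differed by -0.05. Fbn1 (fibrillin) differed by -0.90 ± 0.35, and Mfap5 and Fbln2, microfibril components, by -0.47 ± 0.16 and -0.46 ± 0.16. The YD pools were unequal, with a list mean of -0.39 in pool 1 and -0.74 in pool 2, and the YC pools were at -1.06 and -0.83. On the first-day arrays the median was -0.23. Of the 4 YC and YD pools, YD pool 1 had the highest mean of this list and of the adipocyte list, and the part of either in the other was not tested.

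Of 18 basal and myoepithelial genes, 15 had larger YD values (52.3% of all genes) and 9 were higher in both YD pools (16.1% of all genes), with a median of -0.16. Lgals7 (galectin-7) differed by -0.92 ± 0.29, Krt15 by -0.26 ± 0.10 and Trp63, the transcription factor that maintains basal cells, by -0.33 ± 0.18. The other probes of Lgals7 and Trp63 differed by -0.27 ± 0.50 and 0.01 ± 0.08. Of 21 luminal genes 11 leaned to YC and 10 to YD, with a median of 0.01, and the largest difference was that of Krt7 (keratin 7), at 1.80 and 2.02 in YC against 1.22 and 1.40 in YD. Krt7's other probe differed by 0.02. None of these genes passed adjustment.

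Immune genes were divided. Of 33 chemokines and cytokines none passed adjustment, 27 had larger YD values (52.3% of all genes) and 15 were higher in both YD pools (16.1% of all genes), with a median of -0.12. Ccl6, a macrophage chemokine, was at 2.83 and 2.89 in YD and at 2.09 and 2.06 in YC. Cxcl1, a neutrophil attractant, differed by -0.64 ± 0.20 and Il1b by -0.77 ± 0.32. Of 20 macrophage genes 14 leaned to YD, with a median of -0.16. Cd163, a scavenger receptor of tissue macrophages, was at 2.06 and 2.18 in YD and at 1.26 and 1.51 in YC, whereas Cd68 differed by 0.10.

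Interferon-response genes had larger YC values. Of 30 genes none passed adjustment and none had an unadjusted p under 0.05, but 29 had larger YC values and 12 were higher in both YC pools (13.1% of all genes), with a median of 0.53. Oas2 and Igtp differed by 1.08 and 1.01, and the other Oas2 probe by 0.50. One pool set much of this: the list mean was 0.56 in YD pool 1, against 1.19 in YD pool 2 and 1.60 and 1.21 in the YC pools. Without YD pool 1 the median was 0.22, without YD pool 2 it was 0.86, and on the first-day arrays it was 0.37. Of 18 antigen presentation genes 16 leaned to YC, with a median of 0.14, and of 0.15 on the first-day arrays. Cd1d1, which presents lipids to NKT cells, was at 3.08 and 3.13 in YC and at 2.01 and 1.99 in YD.

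All 34 proliferation genes had larger YC values, but by little. The differences ran from 0.00 to 0.31, the median was 0.12, none passed adjustment or had an unadjusted p under 0.05, and 10 were higher in both YC pools (13.1% of all genes). Mcm3 and Mcm4, subunits of the replicative helicase, differed by 0.17 ± 0.09 and 0.17 ± 0.10. On the first-day arrays the median was 0.08.

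**Figure D3:**
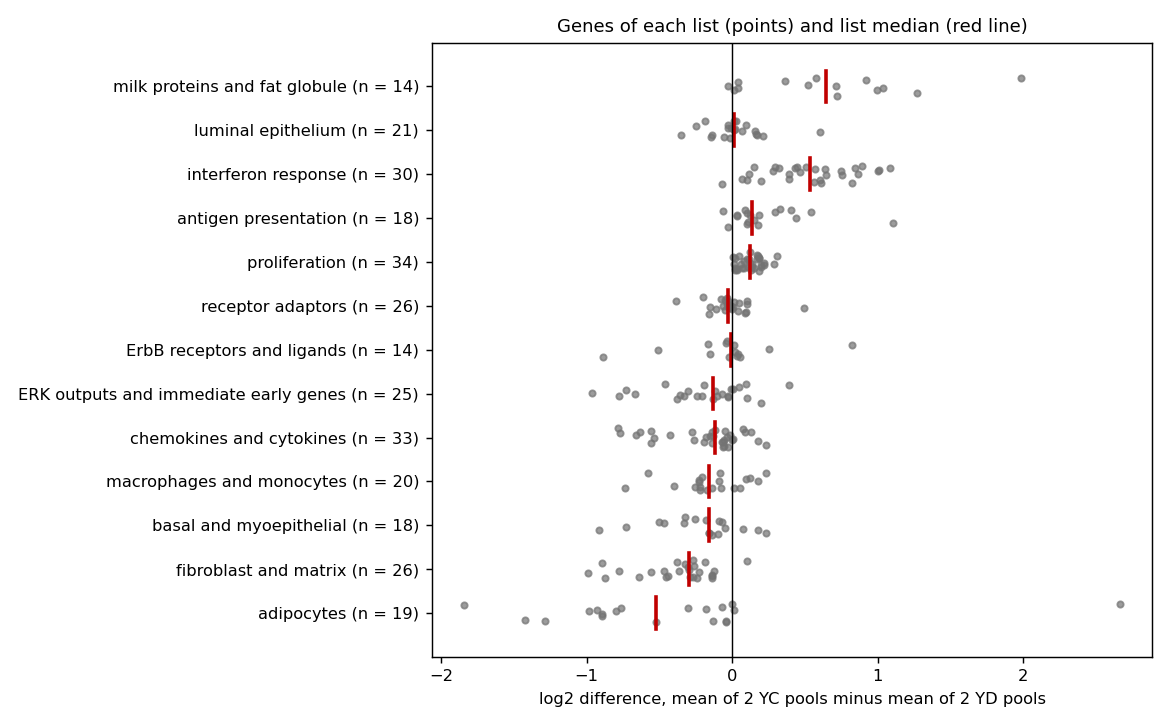
Log2 difference between the mean of the 2 YC pools and the mean of the 2 YD pools for each gene of 13 lists, with the number of genes tested beside each name. Points are genes and red lines list medians. The milk list lies furthest to the YC side with a median of 0.65 and the adipocyte list furthest to the YD side with a median of -0.52, while adaptors, ErbB genes and luminal genes centre on 0.

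Pools of the same number were closer across the strains than the pools of one strain were to each other. The SD over genes of the log2 difference was 0.188 between YC pool 1 and YD pool 1 and 0.184 between YC pool 2 and YD pool 2. It was 0.260 between the YC pools and 0.253 between the YD pools, and 0.293 and 0.277 between pools of different number and strain. Across all 12 pools, the nearest pool to each YC and YD pool was the pool of the same number in the other strain. YE pool 1 came second for YC pool 1, at 0.218, and for YD pool 1, at 0.204, ahead of the pool of their own strain. The labels do not say what a pool number stands for.

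Genes that carried this are described without a test. Higher in pool 1 of both strains were Tia1, an RNA-binding protein of stress granules, at -0.15 against -1.74 in YC and -0.32 against -2.17 in YD, and Stard4, a cholesterol carrier, at -0.35 against -2.08 and -0.47 against -2.01. Plpp3, a lipid phosphatase, Kdm6b, a histone demethylase, Ramp2, Lims1, Gnai2 and Csnk1e followed. Ramp2 was saturated on 2 YC and 2 YD arrays, so its values are only bounds, and its NYPD pools went the other way at -2.64 and -0.19. Higher in pool 2 were Hspa4, a chaperone, at 2.17 against 0.46 in YC and 1.35 against 0.11 in YD, and App, the amyloid precursor, at 1.46 against 0.33 and 1.26 against 0.09. Rora, Anxa6, Man2b1, Vcp, Nrd1 and Sptbn1 were the others. The YE pools split in the same direction for each of the genes named here. Tia1 was at -0.14 and -1.81 in YE pools 1 and 2, and Lims1 at 0.21 and -2.36. Among the genes higher in pool 2 the YE gap could be small, as for App at -0.75 and -0.49. For Tia1 the NDL25 pools, at -0.75 and -1.04, differed less.

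**Figure D4:**
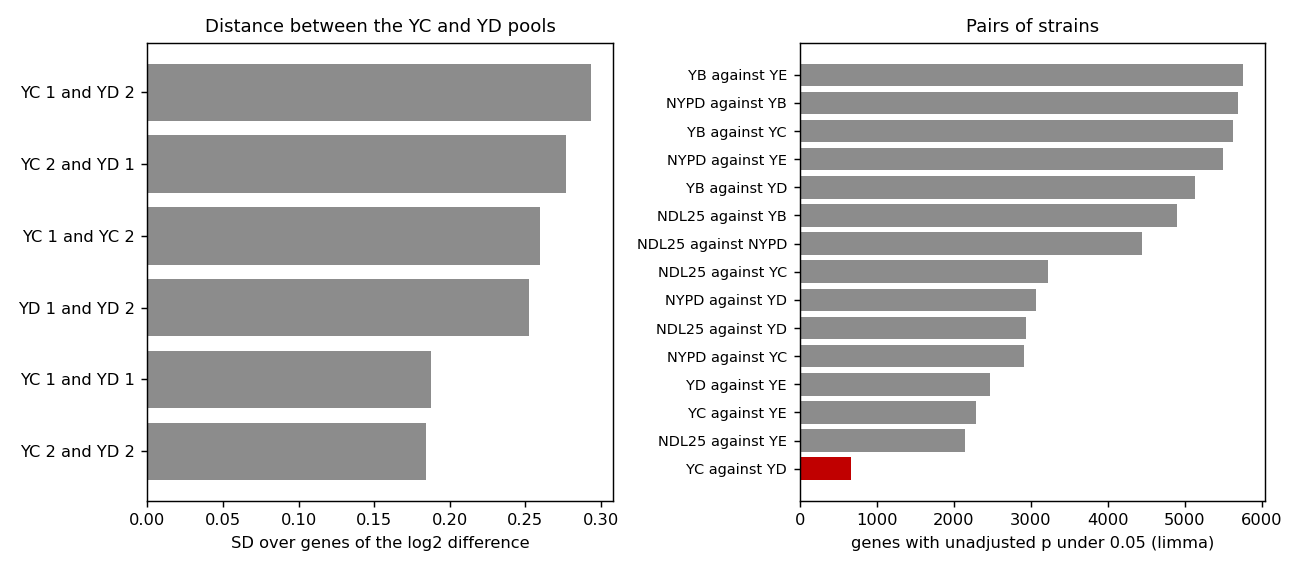
Left, the SD over 28351 genes of the log2 difference between each pair of YC and YD pools. The same-numbered pools of different strains are closest, at 0.184 and 0.188. Right, the number of genes with an unadjusted limma p under 0.05 in each pair of the 6 strains, with YC against YD in red at 670, the lowest of 15.

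Both strains were also set against the mean of NDL25, NYPD, YB and YE. YC differed from it in 14 genes (0.0494%) and YD in 21 (0.0741%) at an adjusted p of 0.05 in limma, and 8 genes were called for both. The 2 comparisons share the 8 pools they are measured against. Of the 8 shared genes 7 were high in YB and low in all 5 other strains, so these calls, 7 of the 14 of YC, come from the YB pools within the mean. Prpmp5, a salivary proline-rich protein, was at 5.98 and 6.10 in YB and at 0.45 or below in the other 10 pools, and Crisp1, Bpifb1, Pax9 and Cldn22 were among the others.

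Stac2 was the exception. Stac2, an adaptor of voltage-gated calcium channels, was at 3.02 and 3.07 in YC and at 3.05 and 3.14 in YD, above all 8 other pools, which ran from 1.93 to 2.63. It was higher by 0.72 in YC (limma adjusted p = 0.0348) and by 0.77 in YD (limma adjusted p = 0.0303). Pxdc1 was likewise high in both strains, at 1.32 and 1.32 in YC and 1.38 and 1.62 in YD against 0.86 or less elsewhere, and passed for YD alone (limma adjusted p = 0.0386, against 0.0808 for YC).

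Genes called for 1 of the strains included Birc6, an apoptosis inhibitor and ubiquitin ligase. It was at -1.57 and -1.2 in YC, differing from the mean of the other 4 strains by -1.21 (limma adjusted p = 0.0185), and YD lay between at -0.60 and -0.40. Lower in YD were Fanca, a DNA repair gene, Tmed3, which sorts cargo between endoplasmic reticulum and Golgi, Gjb2, the gap junction protein connexin 26, and Pycr1, an enzyme of proline synthesis. Gjb2 was at 2.27 and 2.41 in YD, at 3.08 and 2.81 in YC and at 3.10 or above elsewhere. Tmed3 was at 1.2 and 1.19 in YD, at 1.60 and 1.54 in YC and at 1.53 or above elsewhere. The low levels of Fanca and Pycr1 were not particular to YD. Fanca was at -1.54 and -1.44 in YD, close to YB at -1.37 and -1.24, and at -0.99 or above elsewhere. Pycr1 was at 0.14 and -0.05 in YD, close to NYPD at 0.18 and 0.23, and at 0.37 or above elsewhere. YC differed from the mean of the other 4 strains by -0.12 for Fanca, -0.15 for Tmed3, -0.20 for Pycr1 and -0.53 for Gjb2, whose YC pools lay between those of YD and the other 8. None of these genes passed the direct test of YC against YD. The direct differences of Fanca, Tmed3 and Gjb2 were 0.56, 0.37 and 0.60, and their other probes gave 0.05, 0.04 and 0.19.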

How the data were processed

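Per the file headers, the scanner files hold spot intensity, local background intensity and a log10 ratio written by Agilent Feature Extraction. The authors also deposited 1 ratio a pool, read here as log2, for which RMA, limma and R 2.3.0 stand in the submitters' processing notes. Its log base is an assumption. Intensities were corrected by normexp (offset 50) and loess-normalised in limma 3.58.1 (R 4.3.3, data.table version 1.17.8). The labels leave the dye open, so the tumour channel was taken from milk genes. The brightest probe well above background on at least 4 of 24 arrays stood for each gene. A limma model with 6 strain means was fitted to 12 pools, with Benjamini-Hochberg adjustment over 28351 genes, and was tested on simulated data. SE is limma's moderated error with 2 pools a strain.

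Named genes are up to 12 in each direction, first those past adjustment, then those at least 2-fold apart without overlap in order of p, plus up to 4 of each of 38 lists by p, the adaptors, and the 8 highest and 8 lowest genes by pool number. By the probe that stood for each gene, 0 genes with ordinary symbols were at background in one strain alone. Another probe, of Ifi205, was well above background on 0 YC arrays and on 4 YD arrays. The members, lists and tests were chosen with earlier results of these data known. Alternatives changed background correction, normalisation, filter, probe, dye, extraction day, pool block, pools and values.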

Additional observations from a re-analysis of the deposited data

How the results depend on the processing

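The count of 2 genes called between YC and YD was 0 with median centring (607 genes at an unadjusted p under 0.05), with the YC and YD pools fitted alone (1194), with the extraction day as a term (603), with YC held to its first-day array and tumour RNA in Cy5 (613) and with an intensity trend and robust prior in limma (670). It was 1 with the mean of all probes, 4 with tumour RNA in Cy5 alone (Smoc1 and Retn added), and 0 to 3 when 1 pool was left out. The median count called in the other 14 pairs, 145.5, was 0.5 with the day as a term, 59.5 with YC held to that array and the other strains on their own days, and 4 to 386 when 1 pool was left out. The day term rests on the gap between the 2 YC pools, and with it the interferon, antigen presentation and proliferation medians were -0.03, -0.00 and -0.09. With the pool number as a replicate block the median count of the other pairs was 246. The YC and YD count was then 3 over all pools (Meis1 added, 801 unadjusted) and 0 in the 4 pools alone (3581 unadjusted). The numbers were not treated as pairs: deviations of same-numbered pools correlated at 0.712 between YC and YD, 0.617 between YD and YE, 0.465 between YC and YE and 0.395 between NDL25 and YB, but at -0.172 between NYPD and YC, and the labels give the numbers no meaning. BC006965 passed in 14 of 26 alternatives and Slc25a17 in 12. With the deposited ratios Slc25a17 was at -0.27, because its brightest probe lacks a value in 1 pool and the disagreeing probe took its place. The medians of the milk, adipocyte, fibroblast, chemokine, macrophage, basal and ERK lists kept their sign in all 26 alternatives.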

Other observations

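Several other pathways were compared, and none of their genes passed adjustment between YC and YD. Of 25 endoplasmic reticulum stress genes 16 leaned to YC, with a median of 0.05. Derl3, a component of protein degradation in that compartment, was at 1.34 and 1.62 in YC and at 0.64 and 0.87 in YD. Of 29 Wnt genes 19 leaned to YD, with a median of -0.03, and Fzd1, a Wnt receptor, and Sfrp4, a secreted Wnt inhibitor, differed by -0.41 ± 0.14 and -0.64 ± 0.22. Medians lay within 0.05 of 0 for hypoxia, fatty acid, cholesterol, NRF2, Hox, Notch, T cell, B cell and salivary genes.

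Skeletal muscle genes separated the YC pools rather than the strains. Their mean level was -0.36 in YC pool 1 and 0.40 in YC pool 2, against -0.10 and -0.05 in the YD pools. Red cell genes leaned to YC in 7 of 7, with a median of 0.09, and Cpa3, a mast cell protease, was at 0.71 and 0.65 in YD against 0.28 and 0.26 in YC.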
